A study of Mus musculus with 8 samples.

Results

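The Akr1 aldo-keto reductases are described here by 9 listed genes, Akr1d1, Akr1a1, Akr1b3, Akr1b7, Akr1b8, Akr1c12, Akr1c13, Akr1c14 and Akr1c18, among 41388 gene identifiers in the count tables and among 16 Akr1 genes found there in all. Ear skin was taken from 4 mice treated with MC903 (calcipotriol, a vitamin D analog, 1 nmol applied to the skin daily for 12 days) and from 4 mice treated with its vehicle, ethanol. All 8 mice were adult wild-type C57Bl/6 animals. One RNA-sequencing library was made from each whole ear skin sample, and the sequenced reads were single, 50 bases long and counted per gene. The genes are members of 1 enzyme family but were selected on their counts in this same comparison (the fold changes of MC903 over vehicle), so their differences between MC903 and vehicle skin are given as a description, without p-values, and support nothing beyond themselves.

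Aldo-keto reductases are soluble enzymes that use NADPH to reduce aldehydes and ketones to alcohols. The Akr1 family covers sugars and toxic lipid aldehydes (the A and B subfamilies), steroids and prostaglandins (the C subfamily) and the ring double bond of bile acid precursors and steroid hormones (Akr1d1). In skin, enzymes of this kind act on retinal, on aldehydes from lipid oxidation and on locally made steroids.

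Library totals were 12310466 to 15575518 counts in MC903 skin and 14223908 to 16837221 in vehicle skin. A count of 3, taken as the detection floor, corresponded to 0.178 to 0.244 CPM by library total alone, without the adjustment described below. The salivary gene Bpifa2 took 24.5% of the counts of vehicle replicate 2, which stands apart from the other 7 libraries in this. Levels below are CPM (counts relative to the library total) adjusted by TMM factors, which correct for such a gene, and levels compared between genes are also divided by gene length (RPKM). As whole ear skin was sampled, more cells of a type and more RNA per cell cannot be told apart. Of the marker lists for other tissues, hepatocyte markers summed to 3.78 to 4.52 CPM in MC903 skin and 4.48 to 36.3 CPM in vehicle skin, with Cyp7a1 at 0 in all 8 libraries. Of 3 tested hepatocyte markers 1 was higher (Cyp8b1) and 2 lower (Alb and Ttr), but Ttr was -3.77 with 415 counts in vehicle replicate 2 and at most 30 in any other library, and without that library it was -0.94 and not called (adjusted p = 0.107 in edgeR), and of 3 tested adrenal markers 1 was higher (Cyp11a1). The adrenal marker Cyp21a1 had 0 counts, and Cyp11b1 had at most 2 counts in a library. Salivary markers summed to 199 to 264 CPM in MC903 skin and 192 to 359453 CPM in vehicle skin, the upper end being vehicle replicate 2. All 3 tested salivary markers were called lower with that library. Without it Bpifa2 (-0.25) and Car6 (0.11) were not called, and Amy1 was -0.77 (adjusted p = 0.0196 in edgeR).

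The promoter of Akr1d1, which differed most between the groups, is shown with that of Akr1c14, the one listed gene lower in all 4 MC903 libraries, and with those of Akr1c12 and Akr1c13, the closest pair in the family. Each window runs from 250 bases before to 50 bases after the RefSeq gene start on GRCm38.p6 (the mm10 assembly), 5′ to 3′ on the gene's strand. In the first 2 windows the capital marks the start base, and in the pair the capitals mark bases that differ in their alignment.
Akr1d1: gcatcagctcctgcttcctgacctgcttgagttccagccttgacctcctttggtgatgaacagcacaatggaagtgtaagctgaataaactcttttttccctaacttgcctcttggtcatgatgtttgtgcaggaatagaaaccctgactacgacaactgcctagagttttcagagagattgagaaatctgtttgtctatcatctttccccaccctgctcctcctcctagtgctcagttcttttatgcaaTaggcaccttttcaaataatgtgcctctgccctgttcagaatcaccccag
Akr1c14: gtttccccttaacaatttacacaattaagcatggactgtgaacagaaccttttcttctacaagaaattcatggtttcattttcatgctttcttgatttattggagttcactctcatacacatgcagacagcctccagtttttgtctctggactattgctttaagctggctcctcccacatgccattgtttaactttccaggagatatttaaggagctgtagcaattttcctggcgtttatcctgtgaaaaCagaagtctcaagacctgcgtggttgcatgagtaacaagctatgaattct
Akr1c12: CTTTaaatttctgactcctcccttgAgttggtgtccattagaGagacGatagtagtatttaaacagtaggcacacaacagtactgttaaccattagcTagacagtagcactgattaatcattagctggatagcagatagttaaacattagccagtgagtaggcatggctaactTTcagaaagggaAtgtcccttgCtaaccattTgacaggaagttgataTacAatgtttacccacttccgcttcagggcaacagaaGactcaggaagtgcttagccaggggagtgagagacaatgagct
Akr1c13: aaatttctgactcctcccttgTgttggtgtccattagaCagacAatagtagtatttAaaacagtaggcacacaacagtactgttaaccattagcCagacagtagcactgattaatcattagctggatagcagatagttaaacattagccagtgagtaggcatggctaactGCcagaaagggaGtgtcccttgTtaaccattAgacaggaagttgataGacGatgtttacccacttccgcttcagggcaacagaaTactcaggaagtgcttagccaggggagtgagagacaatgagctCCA
These windows lie at chr6:37529923-37530222 (plus strand), chr13:4059341-4059640 (plus), chr13:4279350-4279649 (minus) and chr13:4190937-4191236 (plus). The Akr1c14 window follows the RefSeq start and lies inside the gene as counted, which spans 13:4049011-4090422. The sequence before that counted start was not scanned for motifs. The Akr1c12 and Akr1c13 windows were 93.4% identical over 304 alignment columns, with 12 substitutions and 8 columns with a gap. No other pair of the 14 Akr1 windows was above 58.8%.

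Of the 9 genes, 8 had a RefSeq promoter window. None of the 8 held, on either strand, a vitamin D receptor DR3 element, a glucocorticoid response element, an AP-1 site (TGANTCA), an antioxidant response element (TGACNNNGC) or an E-box (CACGTG). Of all 32851 windows of this length, 0.0396%, 0.247%, 7.81%, 12.4% and 7.15% held these motifs in that order. TATAAA, held by 13.6% of all windows, was found on the reverse strand of the Akr1b8 window at 159 to 154 bases before the start.

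Akr1d1 reduces the ring double bond of bile acid intermediates and of steroid hormones to the beta configuration and is best known from liver. It had 163, 165, 129.7 and 251 CPM in the 4 MC903 libraries, against 1.06, 1.38, 0.800 and 0.687 CPM in the 4 vehicle libraries. Every MC903 library stood far above every vehicle library, and MC903 replicate 4 was highest. The means were 177 ± 52.1 and 0.983 ± 0.309 CPM (SD, n = 4 each), with a fitted log2 fold change of 7.50 ± 0.29 (SE), or 182-fold. The gene (ENSMUSG00000038641, plus strand, 6:37530173-37568815 in mm10) ranked 2 of the 9 by level per length in MC903 skin and 7 in vehicle skin.

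The vehicle level of Akr1d1 rested on 18, 18, 14 and 11 counts, and the MC903 level on 2410, 1982, 1957 and 3099 counts. The ratio of the summed, scaled counts was 181, with an exact 95% interval of 141 to 237 that covers counting error only. Bpifa2 counts in the other libraries were 0.0484% to 0.147% of those in vehicle replicate 2, with a median of 0.0558%. Whether they came from that library or from the samples themselves was not tested. If all had crossed over, the same shares applied to the 9448 Akr1d1 counts of MC903 skin would place 5.27 counts in each vehicle library at the median and 13.9 at the highest. With reads subtracted at the median share, the log2 fold change was 8.07. Whether the vehicle counts are reads crossed between libraries was not tested. No 50-base stretch of the annotated Akr1d1 transcripts occurs in a transcript of another gene, and no other counted gene overlaps its exons.

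By the root-mean-square difference of log2 CPM centred per gene over the 8 libraries, the genes most like Akr1d1 were Cyp24a1, Stfa3 and Stfa2, at 0.37, 0.48 and 0.50 on the log2 scale. Cyp24a1, the vitamin D-degrading enzyme, had 3837 ± 403 CPM in MC903 skin and 18.8 ± 1.73 CPM in vehicle skin (SD, n = 4 each). Stfa3, a stefin A protease inhibitor, had 603 ± 154 and 5.47 ± 1.31 CPM, and Stfa2 of the same family 295 ± 72.2 and 2.02 ± 0.746 CPM, each with MC903 skin first. This likeness is a description over 8 libraries that share the step between the groups.

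**Figure D1:**
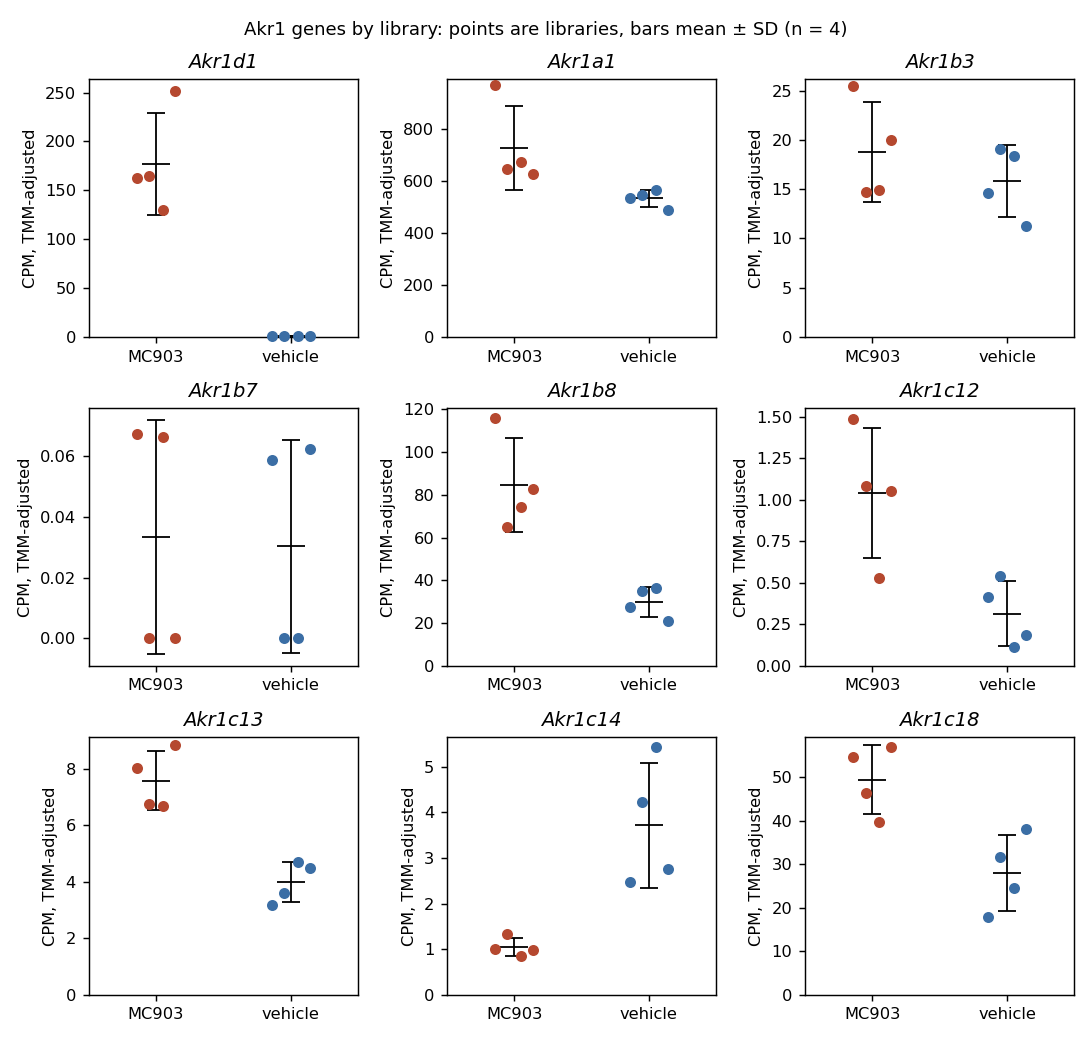
TMM-adjusted CPM of the 9 Akr1 genes, 1 panel per gene with its own linear axis; points are the 4 MC903 and 4 vehicle libraries in replicate order and bars the mean ± SD. Akr1d1, Akr1b8, Akr1c13, Akr1c18 and Akr1a1 lie higher in every MC903 library than in any vehicle library, Akr1c14 lies lower, and Akr1b3, Akr1b7 and Akr1c12 overlap.

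Akr1a1 is the aldehyde reductase that makes gulonate for vitamin C synthesis in mice and clears many aldehydes. It was the highest of the 9 genes per length in both groups, at 265 ± 58.7 RPKM in MC903 skin and 194 ± 11.9 RPKM in vehicle skin. It had 969.7, 647, 672 and 628 CPM in the MC903 libraries and 536, 547, 566 and 489 CPM in the vehicle libraries. The groups did not overlap, but MC903 replicate 1 stood well above the other 3, and the log2 fold change of 0.45 ± 0.18 did not pass the threshold of the fit over all genes. It was 0.29 without MC903 replicate 1. It passed without MC903 replicate 4 (0.52) and with DESeq2 (0.47).

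The Akr1b genes are aldose reductases. Akr1b3, the aldose reductase of the polyol pathway, which turns glucose into sorbitol, had 25.5, 14.7, 15.0 and 20.04 CPM in the MC903 libraries and 14.7, 19.1, 18.3 and 11.2 CPM in the vehicle libraries. The groups overlap, and the log2 fold change was 0.25 ± 0.22. Akr1b8, a reductase of lipid aldehydes and retinal first described as a growth factor-regulated protein, had 116, 65.1, 74.4 and 82.9 CPM in the MC903 libraries and 27.7, 35.04, 36.3 and 21.1 CPM in the vehicle libraries. All 4 MC903 values were above all 4 vehicle values, with a log2 fold change of 1.49 ± 0.21, or 2.82-fold.

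Akr1b8 and Akr1b3 are neighbours on chromosome 6, spanning 34354119 to 34368463 (plus strand) and 34303934 to 34317497 (minus strand) in the count tables. Per length, Akr1b8 stood at 10.9 to 13.04 times Akr1b3 in the 4 MC903 libraries, against 4.80 to 5.19 times in the 4 vehicle libraries. The ratio was near constant within each group although both genes varied: MC903 replicate 1 was the highest and vehicle replicate 4 the lowest of its group for both. Akr1b7, known as a vas deferens and adrenal protein, had 1, 0, 1 and 0 counts in MC903 skin and 1, 0, 0 and 1 in vehicle skin. It was not detected above the floor of 3 counts in any library and could not be compared.

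The Akr1c genes reduce steroids and prostaglandins. Akr1c18, the hydroxysteroid dehydrogenase that inactivates progesterone, had 54.6, 46.4, 39.6 and 57.0 CPM in the MC903 libraries and 17.9, 31.7, 24.5 and 38.1 CPM in the vehicle libraries. The groups did not overlap, but MC903 replicate 3 and vehicle replicate 4 lay close together. The log2 fold change was 0.82 ± 0.21.

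Akr1c14, the mouse 3-alpha-hydroxysteroid dehydrogenase, which reduces dihydrotestosterone and related ketosteroids, was the one gene of the 9 lower in MC903 skin. It had 1.01, 1.33, 0.861 and 0.974 CPM in the MC903 libraries, against 2.47, 4.23, 5.43 and 2.75 CPM in the vehicle libraries. Every MC903 value was below every vehicle value, and the vehicle libraries were the more spread. The log2 fold change was -1.83 ± 0.31, from 15, 16, 13 and 12 counts in MC903 skin and 42, 55, 95 and 44 in vehicle skin. Per length, Akr1c18 stood at 85.7 to 144 times Akr1c14 in MC903 libraries and 11.1 to 34.1 times in vehicle libraries.

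By the same measure as for Akr1d1, the genes most like Akr1c14 were Gm20125 (0.22), Gprasp2 (0.23) and the pseudogene Itih5l-ps (0.23). Gprasp2, a protein that binds G protein-coupled receptors, had 1.31 ± 0.364 CPM in MC903 skin and 4.63 ± 1.64 CPM in vehicle skin. Itih5l-ps had 7.62 ± 0.280 and 25.5 ± 6.28 CPM, and Gm20125 0.204 ± 0.0666 and 1.01 ± 0.191 CPM, again with MC903 skin first (SD, n = 4 each). Gm20125 rested on 4, 3, 2 and 2 counts in the MC903 libraries, around the floor of 3, so its likeness is uncertain.

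Akr1c13 and Akr1c12 are close relatives within the same cluster. Akr1c13 had 8.03, 6.75, 6.69 and 8.84 CPM in the MC903 libraries and 3.18, 3.61, 4.68 and 4.50 CPM in the vehicle libraries. The groups did not overlap, and the log2 fold change was 0.92 ± 0.19. Akr1c12 had 22, 13, 8 and 13 counts in MC903 skin and 7, 7, 2 and 3 in vehicle skin, too few to pass the filter on low counts. The ratio of its summed, scaled counts was 3.45, with an exact 95% interval of 2.02 to 6.15 for counting error only, and its CPM in MC903 replicate 3 (0.530) and vehicle replicate 2 (0.538) overlapped.

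The 2 genes are hard to separate with 50-base reads. Their longest open reading frames were 96.2% identical, and 24.2% of the 50-base stretches of Akr1c13 transcripts and 28.6% of those of Akr1c12 occur in the other gene's transcripts. How reads shared by several genes were counted is not given in the sources used here, so the split between them is uncertain. Counted as 1 gene, their log2 fold change was 1.00. Of the other listed genes, Akr1b7 shared 15.8% of its 50-base stretches with other genes, Akr1b3 13.6% (mostly with Gm38056 and Gm6644), Akr1c14 5.80% (all with Gm18857) and Akr1b8 2.90%. Akr1a1 and Akr1c18 shared 0.862% and 0.581%.

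**Figure D2:**
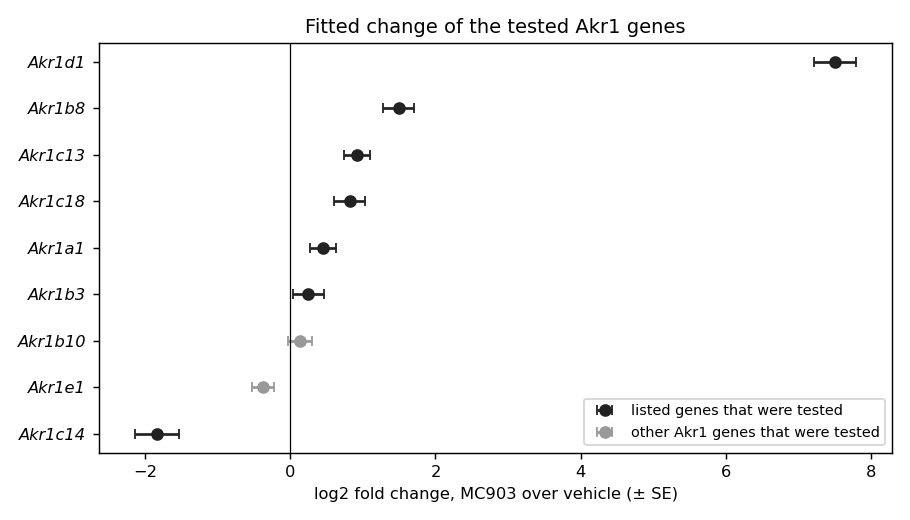
Log2 fold change of MC903 over vehicle (± SE, 8 libraries) for the 7 listed genes that were tested (black) and the other 2 Akr1 genes that were tested (grey). Akr1d1 stands apart at 7.50, Akr1b8, Akr1c13 and Akr1c18 lie between 0.82 and 1.49, and Akr1c14 lies at -1.83.

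Of the 9 genes, 7 passed the filter on low counts, and Akr1b7 and Akr1c12 did not. At an adjusted p under 0.05 (edgeR quasi-likelihood test, Benjamini-Hochberg over 16105 genes), 4 of the 7 were higher (Akr1d1, Akr1b8, Akr1c13 and Akr1c18) and 1 was lower (Akr1c14). Over all genes tested, 21.3% were higher and 20.2% lower. Of the 7, 5 had all 4 MC903 libraries above all 4 vehicle libraries and 1 had them below, against 19.8% and 18.9% of all genes tested. As the genes were listed with this comparison known, nothing is read from these counts.

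The order of levels per length differed between the groups. In MC903 skin it ran Akr1a1, Akr1d1 (60.8 ± 17.9 RPKM), Akr1b8 (56.4 ± 14.8), Akr1c18 (40.9 ± 6.57), Akr1c13 (5.41 ± 0.747), Akr1b3 (4.78 ± 1.29), Akr1c12 (0.821 ± 0.309), Akr1c14 (0.352 ± 0.0681) and Akr1b7. The ranges of Akr1d1 and Akr1b8, of Akr1b8 and Akr1c18, of Akr1c13 and Akr1b3, and of Akr1c12 and Akr1c14 overlapped there. In vehicle skin it ran Akr1a1, Akr1c18 (23.2 ± 7.25), Akr1b8 (20.04 ± 4.70), Akr1b3 (4.03 ± 0.924), Akr1c13 (2.85 ± 0.511), Akr1c14 (1.25 ± 0.462), Akr1d1 (0.337 ± 0.106), Akr1c12 (0.247 ± 0.155) and Akr1b7. Here Akr1c18 and Akr1b8, Akr1b3 and Akr1c13, and Akr1d1 and Akr1c12 overlapped. Beside the move of Akr1d1, 3 pairs stood in the other order: Akr1b8 and Akr1c18, Akr1c13 and Akr1b3, whose ranges overlapped in both groups, and Akr1c12 and Akr1c14, whose ranges overlapped in MC903 skin and not in vehicle skin.

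Summed over the 9 genes, the level per length was 435 ± 76.7 RPKM in MC903 skin and 246 ± 15.1 RPKM in vehicle skin. Akr1a1 made up 60.8% ± 5.35 of it in MC903 skin and 78.9% ± 2.66 in vehicle skin. Akr1d1 made up 14.2% ± 4.35 in MC903 skin and 0.136% ± 0.0396 in vehicle skin, and Akr1b8 12.9% ± 1.18 and 8.08% ± 1.46. The shares of Akr1c18 were close, 9.48% ± 1.25 in MC903 skin and 9.48% ± 3.22 in vehicle skin (SD, n = 4 each).

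**Figure D3:**
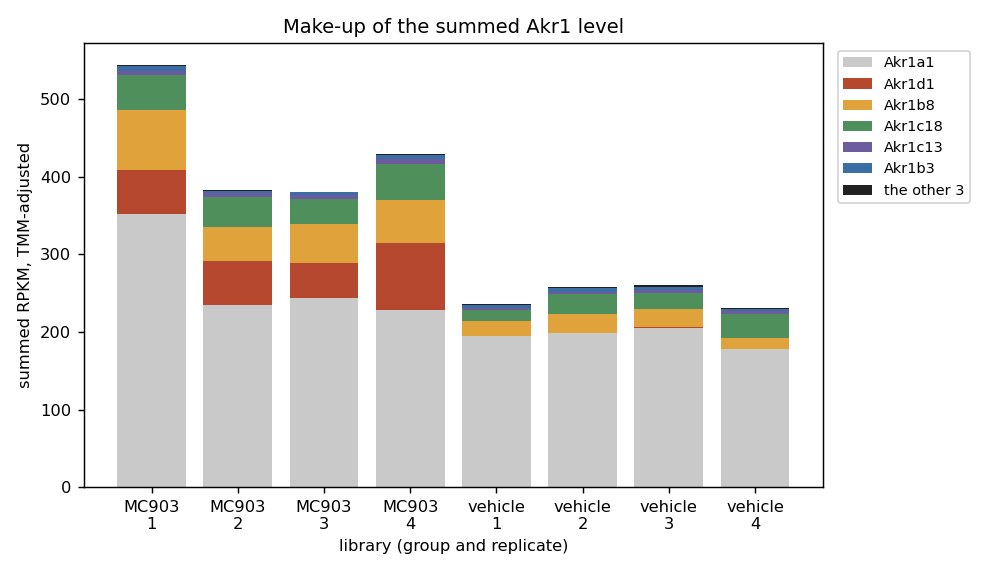
Summed RPKM of the 9 Akr1 genes in each library, stacked by gene; the 4 MC903 libraries are on the left and the 4 vehicle libraries on the right. Totals run from 381 to 545 in MC903 libraries and from 231 to 260 in vehicle libraries, and Akr1d1 is visible as a block in the MC903 libraries.

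Of the other 7 Akr1 genes, 2 could be tested and 5 had few or no counts. Neither of the 2 that could be tested passed (edgeR; 1 had an unadjusted p under 0.05, and DESeq2 and limma-voom called 0). Akr1e1, which reduces anhydrofructose, had 28.8 ± 5.42 CPM in MC903 skin and 37.5 ± 4.50 CPM in vehicle skin (-0.38 ± 0.15, adjusted p = 0.0664), and passed as lower without MC903 replicate 1 and with upper quartile factors. Akr1b10 had 18.4 ± 3.13 and 16.7 ± 2.83 CPM (0.14 ± 0.17, adjusted p = 0.526). It lies between Akr1b8 and Akr1b7, and its reading frame is 85.1% identical to that of Akr1b8. Akr1c19 had 8 counts over the MC903 libraries and 37 over the vehicle libraries, a scaled ratio of 0.253 (exact 95% interval 0.102 to 0.553). Akr1cl had 6 and 19 counts, with 12 of the 19 in vehicle replicate 2, and Akr1c21 1 and 5, and Akr1c6 and Akr1c20 had 0 counts in all 8 libraries.

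The family sits in 4 places on the chromosomes that hold a listed gene. Akr1a1 is alone on chromosome 4 and Akr1d1 alone on chromosome 6. The Akr1b run on chromosome 6 holds 4 Akr1 genes, and the run of Akr1c genes and Akr1e1 on chromosome 13 holds 9. The 2 nearest tested protein-coding genes on each side were taken by position only. Of these 16 genes 2 were higher, 6 lower and 8 not called in MC903 skin. Over all genes tested, 21.3% were higher and 20.2% lower. Whether position bears on these calls was not tested.

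Beside Akr1d1, Creb3l2 was lower (-0.40 ± 0.10, adjusted p = 0.00999), as was Svopl further along (-1.34 ± 0.18, adjusted p = 0.000141), while Dgki (-0.70 ± 0.28, called without vehicle replicate 2 and with upper quartile factors) and Trim24 (-0.18 ± 0.19) did not pass. Around the Akr1b run, Bpgm, the enzyme that makes bisphosphoglycerate, was lower (-0.72 ± 0.15, adjusted p = 0.00279), and Slc35b4, Exoc4 and Cald1 had values of -0.03, -0.06 and 0.09 and did not pass. Calm5 (-1.43 ± 0.17, adjusted p = 8.4e-05) and Net1 (-0.82 ± 0.24, adjusted p = 0.0182), 194 and 131 kb before the Akr1c run, were lower. Net1 was not called without MC903 replicate 3 (adjusted p = 0.0563) or vehicle replicate 3 (0.0566). Klf6 and Pitrm1, 1252 and 1939 kb beyond the run, did not pass (-0.09 ± 0.13 and -0.15 ± 0.13). Around Akr1a1, Nasp (0.58 ± 0.15) and the peroxiredoxin gene Prdx1 (0.53 ± 0.14) were higher and Ccdc17 lower (-0.73 ± 0.14), with adjusted p of 0.0102, 0.0125 and 0.00178 in edgeR, and Mmachc did not pass (-0.37 ± 0.14, adjusted p = 0.0505; called with upper quartile factors, limma-voom and the filter of at least 1 CPM in 4 libraries, and without MC903 replicate 4). With library sizes alone Nasp, Prdx1 and Creb3l2 were not called.

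**Figure D4:**
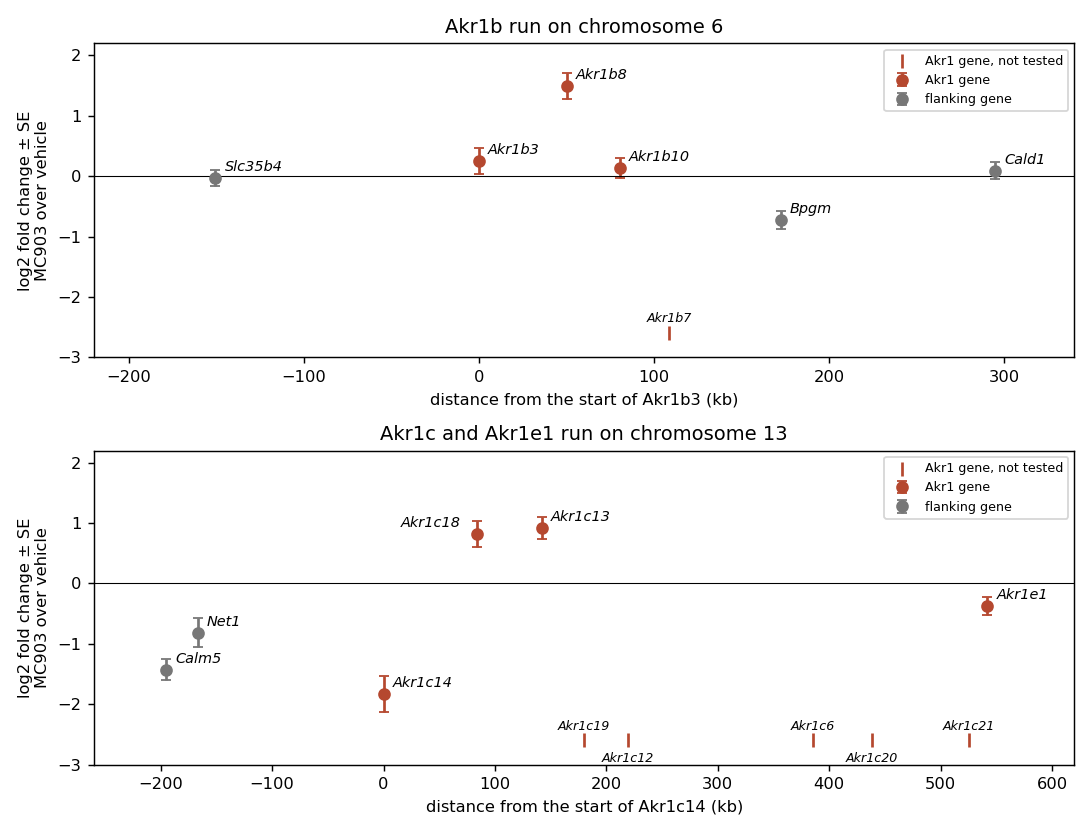
Log2 fold change (± SE) of MC903 over vehicle against position in kb, for Akr1 genes (red) and flanking genes within the window (grey). Position is the lowest coordinate of each gene on either strand, counted from that of Akr1b3 (top) or Akr1c14 (bottom). Ticks mark Akr1 genes that were not tested. Akr1b8 at 1.49 stands between Akr1b3 and Akr1b10 near 0, and in the Akr1c run Akr1c14 lies at -1.83 beside Akr1c18 and Akr1c13 at 0.82 and 0.92.

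Pathways that share substrates with the Akr1 enzymes were followed in lists of genes that are not among the 9. The counts called in this and the following lists stand beside 21.3% higher and 20.2% lower over all genes tested. Whether any list departs from these shares was not tested. In the bile acid list, which gives Akr1d1 its liver substrates, 3 of 10 tested genes rose and 2 fell (4 fell without MC903 replicate 1 and 5 without MC903 replicate 4). Ch25h, cholesterol hydroxylase of the side chain, rose to 3.64 ± 0.839 CPM in MC903 skin, against 0.733 ± 0.337 CPM in vehicle skin (2.28 ± 0.33, adjusted p = 0.000254). Cyp7b1, an oxysterol hydroxylase, rose to 42.7 ± 11.1 CPM, against 9.96 ± 1.50 CPM in vehicle skin (2.10 ± 0.20, adjusted p = 1.55e-05). The 2 genes that fell were Hsd3b7 and Cyp39a1. Hsd3b7 fell to 39.1 ± 4.31 CPM, against 57.8 ± 9.33 CPM in vehicle skin (-0.56 ± 0.14, adjusted p = 0.00815 in edgeR). Cyp39a1 fell to 24.2 ± 3.59 CPM, against 41.3 ± 9.03 CPM (-0.77 ± 0.17, adjusted p = 0.00489 in edgeR). Cyp27a1, the mitochondrial sterol hydroxylase, had 17.2 ± 5.15 CPM in MC903 skin and 20.6 ± 2.86 CPM in vehicle skin and did not pass (it did, as lower, without MC903 replicate 1), and Cyp7a1, the rate-limiting enzyme of the liver pathway, had 0 counts in all 8 libraries.

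In the steroid hormone list, 2 of 13 tested genes rose and 2 fell (4 fell without MC903 replicate 1). Cyp11a1, which cuts the cholesterol side chain, rose to 37.5 ± 4.92 CPM in MC903 skin, against 15.2 ± 0.894 CPM in vehicle skin (1.30 ± 0.13, adjusted p = 2.15e-05). Cyp17a1, the steroid hydroxylase and lyase, rose to 32.5 ± 12.6 CPM, against 8.28 ± 2.09 CPM (1.97 ± 0.27, adjusted p = 0.000191). Srd5a1, which reduces the same steroid double bond to the alpha configuration, had 51.5 ± 12.1 CPM in MC903 skin and 60.5 ± 2.05 CPM in vehicle skin and did not pass (-0.23 ± 0.15, adjusted p = 0.245), though it did without MC903 replicate 1 (-0.40, adjusted p = 0.00844). Hsd17b2 had 31.3 ± 6.33 CPM in MC903 skin and 27.9 ± 12.1 CPM in vehicle skin and did not pass.

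Around Akr1b3 and the glyoxalases, 2 of 8 genes rose and 3 fell. Sord, which takes the sorbitol made by aldose reductase to fructose, fell to 32.8 ± 2.91 CPM in MC903 skin, against 54.9 ± 5.52 CPM in vehicle skin (-0.74 ± 0.12, adjusted p = 0.000591). The fructose transporter gene Slc2a5 fell to 4.87 ± 0.700 CPM, against 14.4 ± 1.14 CPM (-1.56 ± 0.15, adjusted p = 1.9e-05). Glo1, which clears methylglyoxal, rose to 176 ± 11.3 CPM, against 86.8 ± 4.86 CPM (1.02 ± 0.11, adjusted p = 4.12e-05). In the glucuronate and ascorbate list around Akr1a1, 0 of 6 genes passed in edgeR, 0 had an unadjusted p under 0.05, and DESeq2 and limma-voom called 0, but 1 (Slc23a1) fell without MC903 replicate 4. Its smallest p-values were those of Slc23a1 (-0.54 ± 0.27) and Rgn (-0.27 ± 0.18), and Gulo, the last enzyme of vitamin C synthesis, was at or below the floor in most libraries (0.112 ± 0.0446 CPM in MC903 skin and 0.266 ± 0.149 CPM in vehicle skin).

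In the prostaglandin list, 4 of 15 genes rose and 3 fell. Ptgs2, the inducible cyclooxygenase, rose to 60.9 ± 17.8 CPM in MC903 skin, against 1.42 ± 0.318 CPM in vehicle skin (5.42 ± 0.28, adjusted p = 2.45e-07), and Ptges, a prostaglandin E synthase, to 236 ± 46.0 CPM, against 63.4 ± 1.63 CPM (1.89 ± 0.15, adjusted p = 4.6e-06). Ptgfr, the receptor for prostaglandin F, fell to 17.4 ± 3.19 CPM, against 35.7 ± 8.41 CPM (-1.04 ± 0.19, adjusted p = 0.00147).

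Other enzymes of carbonyls and aldehydes went both ways, with 5 of 19 genes higher and 8 lower. Gsta4, a glutathione transferase for lipid aldehydes, rose to 312 ± 89.2 CPM in MC903 skin, against 32.5 ± 11.6 CPM in vehicle skin (3.26 ± 0.28, adjusted p = 8.55e-06). Aldh1a3, which makes retinoic acid, rose to 24.9 ± 6.50 CPM, against 3.86 ± 0.776 CPM (2.69 ± 0.22, adjusted p = 5.73e-06). Of the other Aldh1a genes in the list, Aldh1a1 fell to 34.5 ± 19.6 CPM, against 94.8 ± 18.7 CPM (-1.46 ± 0.31, adjusted p = 0.00354 in edgeR). Aldh1a7 fell as well (-1.77 ± 0.28, adjusted p = 0.000556 in edgeR), and Aldh1a2 did not pass (0.79 ± 0.47). Of 17 NRF2 target genes, 7 rose and 4 fell, and with library sizes alone 4 rose. Slc7a11, the cystine transporter, rose to 45.7 ± 14.2 CPM, against 4.50 ± 0.602 CPM (3.35 ± 0.25, adjusted p = 3.43e-06), and Gsta3 fell to 7.78 ± 1.08 CPM, against 34.7 ± 7.65 CPM (-2.15 ± 0.19, adjusted p = 8.72e-06). Median log2 fold changes of the lists ran from -0.35 (polyol and glyoxalase) to 0.48 (NRF2 targets), beside -0.03 over all genes tested.

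**Figure D5:**
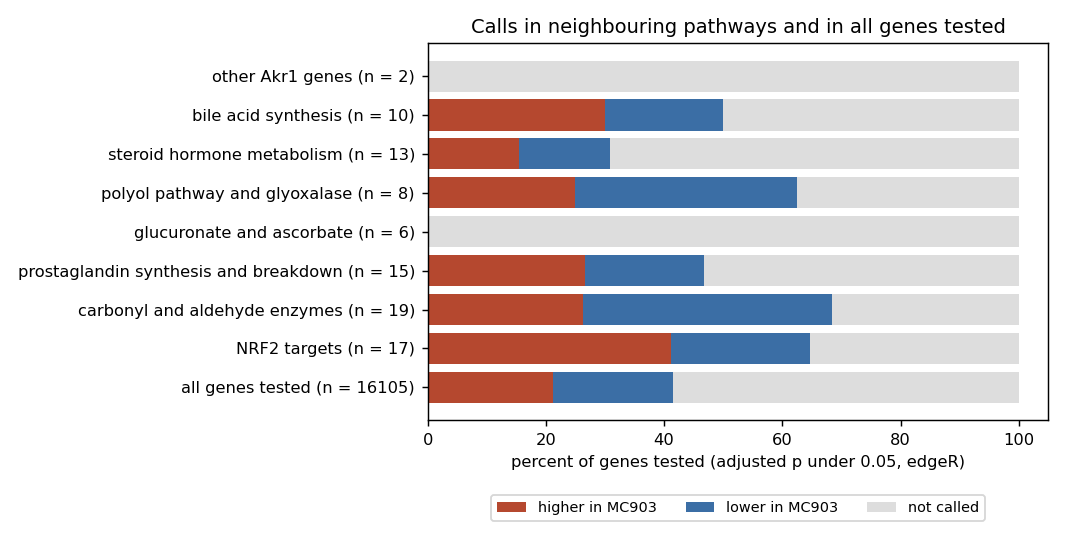
Percent of tested genes in each list, and in all 16105 genes tested, that were higher (red), lower (blue) or not called (grey) in MC903 skin at an adjusted p under 0.05. The carbonyl list (8 of 19 lower) and the NRF2 list (7 of 17 higher) hold calls in both directions, and the glucuronate list and the other Akr1 genes hold none. Of all genes tested, 21.3% were higher and 20.2% lower.

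Some cell type markers differed between the groups, but most of those of keratinocytes, sebocytes and fibroblasts were not called. Their counts stand beside 21.3% higher and 20.2% lower over all genes tested. Markers of basal keratinocytes summed to 8483 to 10157 CPM in MC903 skin and 3701 to 4233 CPM in vehicle skin, with 1 of 5 higher (Krt14) and 1 lower (Col17a1). Most of that sum in MC903 skin was Krt14, at 7077 ± 828 CPM, against 1939 ± 257 CPM in vehicle skin. Those of suprabasal keratinocytes summed to 9573 to 12864 and 7872 to 9970.3 CPM, with 1 of 5 higher (Krt1). Macrophage markers were higher in 6 of 6 cases (1055 to 1570.4 CPM in MC903 skin, 350.4 to 463 CPM in vehicle skin), neutrophil markers in 4 of 4 tested (395 to 1405 and 32.3 to 112 CPM) and T cell markers in 3 of 5 (59.6 to 85.5 and 50.3 to 65.7 CPM). Adipocyte markers were lower in 4 of 5 cases (116 to 357 CPM in MC903 skin, 315 to 854 CPM in vehicle skin), sebocyte markers in 2 of 6, fibroblast markers in 1 of 5 and skeletal muscle markers in 3 of 5. Some of these counts rest on single libraries. With 1 library left out, markers called lower numbered 2 to 5 for adipocytes (2 without MC903 replicate 2, MC903 replicate 3 or vehicle replicate 2) and 0 to 5 for skeletal muscle, where each of the 8 libraries moved the count. Basal keratinocyte markers called lower numbered 0 without MC903 replicate 2, MC903 replicate 4, vehicle replicate 1 or vehicle replicate 4, and 2 without vehicle replicate 3. For sebocytes 3 were lower without MC903 replicate 4. Macrophage markers called higher numbered 5 without MC903 replicate 1 or vehicle replicate 2, 3 or 4. Without vehicle replicate 4, 1 T cell marker was lower. The part of these markers in the levels of the Akr1 genes was not tested.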

How the data were processed

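Per the labels' protocols, total RNA of whole ear skin was DNase-treated and depleted of ribosomal RNA, and random-primed libraries were sequenced with single reads of 50 bases. No step that marks strand is named. The authors deposited whole-number counts per Ensembl gene, and CPM and RPKM made from them. The submitters' processing notes name STAR 2.0.4b, Subread and featureCounts 1.4.5 and the build mm10. What annotation and strand setting were used, and how multiply mapped reads were treated, is not given in the sources used here. Both the deposited CPM and RPKM followed from count, total and gene length to within 2.33e-10 and 5.82e-11 and were used only for that check.

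Of 41388 identifiers, 40254 were named from a symbol table. Counts were filtered with filterByExpr, scaled with TMM and fitted by group alone in edgeR 4.0.16 under R 4.3.3 (quasi-likelihood test, Benjamini-Hochberg over all 16105 genes tested, threshold 0.05). The standard error is the log2 fold change divided by the square root of F. The fit was tested on simulated counts with the same dispersion (variance beyond counting error) set for every gene. This setting is unlike these data, so nothing is read from that test. Alternatives were other scalings and filters, DESeq2 1.42.0, limma-voom (limma 3.58.1), a replicate block, each library left out, subtraction of crossed reads, and summed close relatives. Each library counts as 1 sample, since the lowest chi-square per degree of freedom within a group was 10.1.

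Shared 50-base stretches and reading frames came from GENCODE M21 transcripts, promoters from RefSeq (GRCm38.p6), alignments from Biopython 1.88 and exact intervals from scipy 1.17.1. The text names the 9 genes, the other Akr1 genes, the 2 tested genes with the smallest p in each list and 8 partner genes taken from known biochemistry. It also names the flanking genes and the 3 nearest patterns for the largest rise and the largest fall. The genes, lists and rule were chosen with earlier results of these data known. Krt14, Krt1, Col17a1 and the liver, adrenal and salivary markers were named after their values were seen. The same holds for Aldh1a1, Aldh1a2, Aldh1a7, Hsd3b7, Cyp39a1, Hsd3b6 and Hsd17b7.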

Additional observations from a re-analysis of the deposited data

Results flagged for a closer look

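In 105 groups of 4 values checked for named genes, 8 held 1 library whose gap to the nearest of the others took up most of the range. Chance alone flags about 5% of such groups. Akr1a1 stood at 969.7 CPM in MC903 replicate 1, above the other 3 MC903 libraries. MC903 replicate 1 was also high for Gsta3 (9.38 CPM) and low for Trim24 (13.4 CPM). MC903 replicate 4 was high for Slc23a1 (1.38 CPM) and low for Slc7a11 (24.7 CPM), and MC903 replicate 3 was high for Creb3l2 (29.4 CPM). Among vehicle libraries, replicate 4 was high for Cyp11a1 (16.6 CPM) and low for Slc2a5 (12.7 CPM).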

How the results depend on the processing

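The directions of the 7 tested Akr1 genes were the same in all alternatives run, and the calls of 6 of them as well. Akr1a1 was called with DESeq2 (0.47) and without MC903 replicate 4 (0.52). The genes were listed with this comparison known, and the alternatives refit the same libraries. Their sameness thus describes the processing only and is no further evidence of a difference. Leaving out 1 library at a time gave ranges of 7.29 to 7.68 for Akr1d1, 0.29 to 0.52 for Akr1a1, 0.07 to 0.36 for Akr1b3, 1.31 to 1.61 for Akr1b8, 0.82 to 1.01 for Akr1c13, 0.65 to 1.00 for Akr1c18 and -1.99 to -1.59 for Akr1c14. Akr1c12, filtered out with all libraries, was called higher with no filter (1.73) and in the 5 fits without 1 library that tested it (1.45 to 2.08). With at most 7 counts in a vehicle library, it passed the filter in those 5 fits through its MC903 counts. Nothing is therefore read from its calls. Akr1c19 was called lower with no filter (-1.96, adjusted p = 0.0162 in edgeR).

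The other Akr1 genes had 1 lower with upper quartile factors or no filter, and 0 to 1 with 1 library left out. With 1 library left out, genes lower ran from 2 to 5 in the bile acid list (4 without MC903 replicate 1, 5 without MC903 replicate 4), 2 to 4 in the steroid list (4 without MC903 replicate 1) and 0 to 1 in the glucuronate list. With library sizes alone, NRF2 targets higher numbered 4 and flanking genes higher 0. Small uncalled values changed sign with 1 library left out: Hsd17b2 (range -0.013 without vehicle replicate 1 to 0.49), Slc35b4 (-0.103 to 0.054, above 0 without MC903 or vehicle replicate 3), Cald1 (-0.0014 without MC903 replicate 4 to 0.18) and Trim24 (-0.26 to 0.0085 without MC903 replicate 1).

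Replicate numbers did not pair the samples: correlations of deviations between same-numbered libraries ran from -0.20 to 0.06, and none of the 4 MC903 libraries correlated best with its own number. With the replicate block 5705 genes were called, against 6682 without it. Differences in Akr1b7 and Akr1c21 were not detectable at this depth.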
